A study of Mus musculus with 2 samples.

Results

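The Mir17 to Mir92-1 cluster is a group of 6 microRNA (miRNA) genes, Mir17, Mir18, Mir19a, Mir20a, Mir19b-1 and Mir92-1, that lie in 1 host transcript, Mir17hg, on mouse chromosome 14. They were picked by gene symbol in GENCODE M21, by a rule that uses no measured value, although earlier results of these data were known when the cluster was chosen, and are 6 of the 1973 miRNA genes counted. Small RNA was sequenced from mouse neural tube, the embryonic forerunner of the central nervous system, taken on embryonic day 12.5. There was 1 group, of strain B6NCrl, with healthy embryos of both sexes pooled: 120 embryos in replicate 1 and 88 in replicate 2. No treatment, mutant, second age or second tissue was part of it, so what can be compared are the members with each other, with other miRNA genes, and between the replicate pools. A whole pooled tissue was measured, and fewer cells of a type and less RNA per cell cannot be told apart.

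A polycistronic miRNA transcript is cut by the nuclear enzyme Drosha into hairpins, and Dicer then cuts each hairpin into a duplex of about the length printed below. Usually 1 strand of the duplex (the 5p or the 3p arm) enters Argonaute and pairs with messenger RNAs through its seed, bases 2 to 8. The Mir17 cluster is transcribed under Myc and E2F factors, is active in proliferating cells and was named an oncogenic cluster from human lymphoma. In the mouse nervous system its miRNAs are known for promoting the expansion of neural progenitors and the survival of motor neurons.

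The sequences below are the arms known as the main products of these genes, credited to RefSeq (GRCm38.p6), 5′ to 3′, with the seed in capitals. They are shown because the 6 genes fall into 4 seed groups, by which the results are ordered.
Mir17, miR-17-5p: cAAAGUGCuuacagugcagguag
Mir20a, miR-20a-5p: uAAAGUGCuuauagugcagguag
Mir18, miR-18a-5p: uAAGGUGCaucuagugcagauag
Mir19a, miR-19a-3p: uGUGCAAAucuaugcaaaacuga
Mir19b-1, miR-19b-3p: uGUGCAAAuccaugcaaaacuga
Mir92-1, miR-92a-3p: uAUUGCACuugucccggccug
The arms of Mir17 and Mir20a share 21 of 23 bases and differ at C1U and C12U, counted from the 5′ end with the base of Mir17 first. Those of Mir19a and Mir19b-1 share 22 of 23 and differ at U11C, with the base of Mir19a first. miR-18a differs from miR-17 inside the seed, at A4G.

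The deposited count of a gene sums all reads on its hairpin, so it does not separate the arms printed above from the opposite arms. This matters for Mir17, whose 3p arm (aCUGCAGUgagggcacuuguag, seed in capitals) is known in the mouse spinal cord as a repressor of Olig2, a transcription factor of motor neuron progenitors. Values below are reads of the whole gene.

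On mm10 the host gene Mir17hg, a long non-coding RNA, runs on the plus strand at chr14:115042879-115046727 and has 2 exons in GENCODE M21. The 6 hairpins all lie in exon 2 (chr14:115043271-115046727), within 836 bases, with 35 to 96 bases between one hairpin and the next. Their order along the transcript is Mir17 (chr14:115043671-115043754), Mir18 (chr14:115043851-115043946), Mir19a (chr14:115044000-115044081), Mir20a (chr14:115044157-115044263), Mir19b-1 (chr14:115044305-115044391) and Mir92-1 (chr14:115044427-115044506). RefSeq annotates a shorter Mir17hg that starts at 115044390, after the end of 4 of the 6 hairpins. None of the 6 had a read on the opposite strand in either library (0 reads each).

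**Figure D1:**
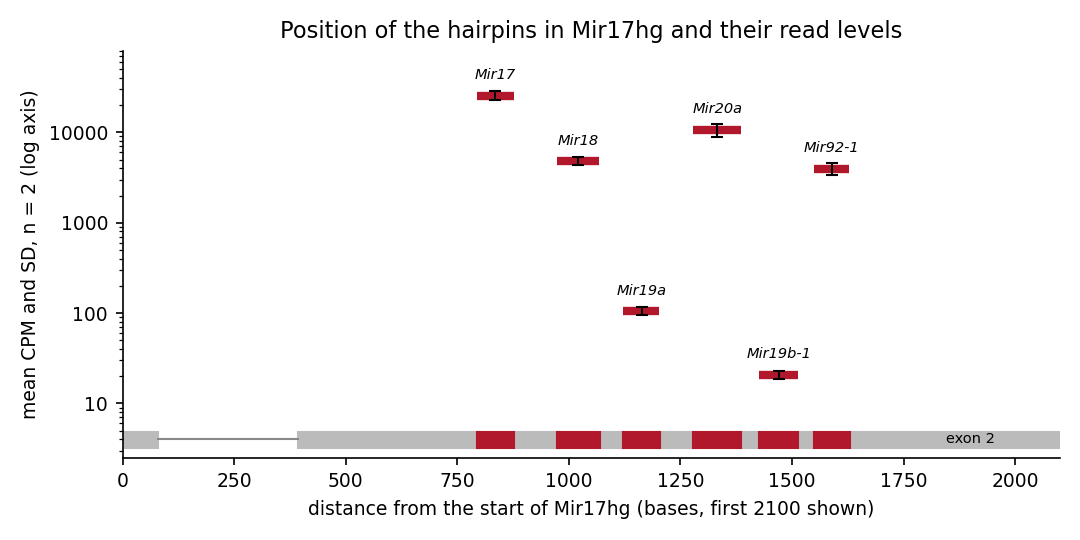
Horizontal axis: distance in bases from the start of Mir17hg; vertical axis: mean CPM, reads per 1000000 gene reads, on a log axis, with red lines as wide as each hairpin, black bars the SD of 2 libraries, and below them the exons in grey with the hairpins in red. Hairpins with 35 to 96 bases between them stand at levels from 20.8 to 25531 CPM, and the levels do not follow the order along the transcript.

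The libraries held 4802411 (replicate 1) and 4422853 (replicate 2) reads on the own strand of miRNA genes, and levels are given as reads per 1000000 of these (CPM). The files list multiply mapped reads in a separate row, with 27.0% and 28.6% of all reads in the files of replicates 1 and 2. These reads are taken here to be in no gene's count, which no source states. A gene was called detected where each library held 10 or more of its reads, which 371 genes met. The labelled tissue was checked against miRNA genes known from it. Of 10 neural genes listed, 9 were counted and 7 detected, with 4043 and 4455 CPM in sum, most of it Mir137, a neuronal miRNA gene (2541 and 3077 CPM). Of the multicopy neural genes, the 3 Mir124a copies had at most 10.8 and 8.59 CPM (Mir124a-2) and Mir9-2 5.41 and 2.49 CPM, while Mir9-3 had 268 and 298 CPM, Mir128-1 234 and 152 CPM and Mir128-2 172 and 107 CPM. Reads that match several copies equally well would be multiply mapped and in no copy's count. A low value of a multicopy gene therefore does not show that its miRNA is scarce. The Hox cluster genes of the trunk axis held 36.4% and 34.9% of gene reads. Of other tissues, the endothelial gene Mir126a had 20304 and 18258 CPM, the 3 erythroid genes 112 and 102 CPM in sum, and the 2 leukocyte genes counted 218 and 187 CPM. Of the 4 muscle genes counted only Mir206 was detected (811 and 469.8 CPM). Mir1a-1 had 0.208 and 0 CPM, and both Mir133a copies had 0 reads. The liver gene Mir122 had 32.3 and 14.0 CPM. The part of these cells in the values below was not tested.

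The cluster held 4.20% of all gene reads in replicate 1 (95% exact binomial interval 4.18 to 4.21) and 4.85% in replicate 2 (4.83 to 4.87), or 4.52% ± 0.460 (SD, n = 2). All 6 members were detected. The intervals, here and below, cover the counting error of reads only and leave out variation between pools. Even for counting error they may be too narrow, since PCR copies without molecular identifiers are not independent molecules. Its reads were concentrated in the pair with the miR-17 seed, Mir17 and Mir20a, and were few in the pair with the miR-19 seed. With 2 libraries no exact test over samples can go below p = 0.5, so 2 members were taken to differ beyond their spread where the log2 ratio had 1 sign in both libraries and its mean exceeded its SD.

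Mir17, whose 5p product represses inhibitors of the cell cycle such as Cdkn1a, had 112813 reads (23491 CPM) in replicate 1 and 121939 reads (27570.2 CPM) in replicate 2. It was the highest member in both libraries, with 56.4% ± 0.639 of the cluster's reads, and ranked 6 among all 1973 genes by mean CPM. Mir20a, which carries the same seed, had 45550 reads (9485 CPM) in replicate 1 and 53035 (11991 CPM) in replicate 2. It held 23.7% ± 1.51 of the cluster's reads and ranked 18. Mir17 exceeded Mir20a 2.48-fold in replicate 1 and 2.30-fold in replicate 2, or 2.39 ± 0.125, beyond the spread.

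Mir18, whose processing in human cells depends on the RNA-binding protein HNRNPA1, had 21440 reads (4464 CPM) in replicate 1 and 23113 (5226 CPM) in replicate 2. It stood below Mir20a by a factor of 2.21 ± 0.120, at rank 38, although its hairpin lies 96 bases after that of Mir17. Its proportion to Mir17 was nearly the same in both pools: Mir17 had 5.26 and 5.28 times the reads of Mir18.

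Mir92-1, whose 3p product represses Bcl2l11, a promoter of cell death, had 21167 reads (4408 CPM) in replicate 1 and 15688 (3547 CPM) in replicate 2. It ranked 49 and was the only member with the higher level in replicate 1. Mir18 had 1.01 and 1.47 times the reads of Mir92-1 in replicates 1 and 2, so the order of these neighbours was the same in both libraries but did not exceed their spread (mean log2 ratio 0.29, SD 0.38).

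Mir19a had 472 reads (98.3 CPM, interval 89.6 to 108) in replicate 1 and 500 (113 CPM, 103 to 123) in replicate 2. Mir19b-1, with the same seed, had 92 reads (19.2 CPM, 15.4 to 23.5) in replicate 1 and 99 (22.4 CPM, 18.2 to 27.3) in replicate 2. Together these members of the miR-19 seed held 0.0117% of gene reads in replicate 1 and 0.0135% in replicate 2, at ranks 190 and 278. The ranks are over all 1973 genes, of which 1237 had no read in either library. Of the 371 detected genes, 48.8% had a lower mean CPM than Mir19a and 25.1% a lower one than Mir19b-1. Mir17 exceeded Mir19a 241 ± 3.44-fold and Mir19b-1 1229 ± 3.87-fold in reads. Mir19a exceeded Mir19b-1 5.09 ± 0.0565-fold, and Mir92-1 exceeded Mir19a 38.1 ± 9.52-fold. Of the 15 pairs of members, 14 differed beyond their spread, and of the 5 neighbours in the order of levels, which are among the 15, 4 did. The pairs share members, and the same share for pairs of all detected genes was not computed. The counts therefore describe these levels only. The folds compare reads, since the yield of each sequence in library preparation is not known.

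**Figure D2:**
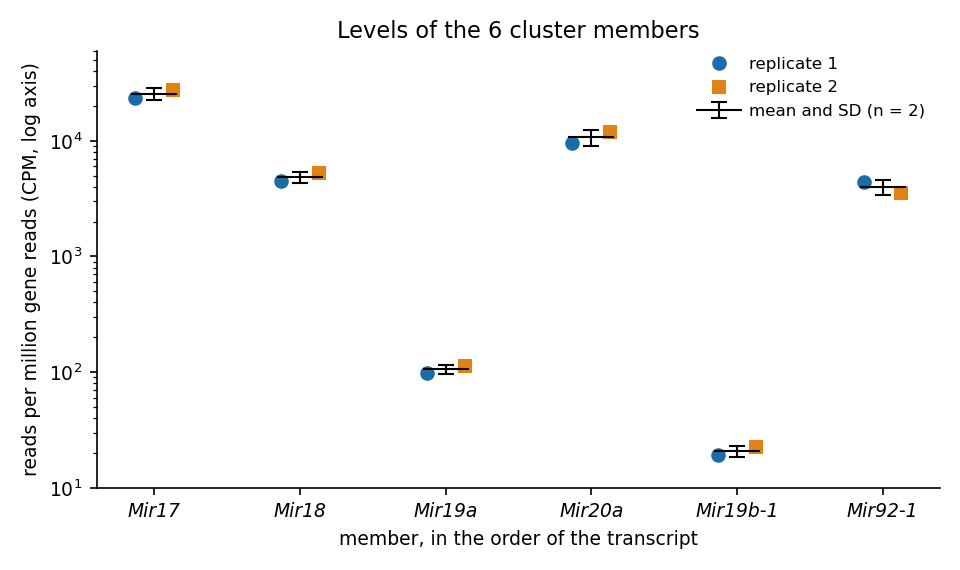
Horizontal axis: the 6 members in the order of the transcript; vertical axis: CPM on a log axis, circles for replicate 1, squares for replicate 2, black lines the mean and its SD (n = 2). The replicates lie close together against the distance between most members, though not against that between Mir18 and Mir92-1, and Mir92-1 is the only member with the circle above the square.

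A pair of members has a copy of its main arm elsewhere. miR-19b-3p stands whole in the hairpins of Mir19b-1 and of Mir19b-2 on chromosome X, and miR-92a-3p in those of Mir92-1 and of Mir92-2 on chromosome X. None of the main arms of Mir17, Mir18, Mir19a and Mir20a was in another hairpin of the RefSeq table, nor was any stretch of 20 bases of them. The hairpins of the copied pairs are shown with the stretch that both copies hold in capitals, because a read that lies within it matches both genes equally well.
Mir19b-1 (chr14:115044305-115044391, plus strand): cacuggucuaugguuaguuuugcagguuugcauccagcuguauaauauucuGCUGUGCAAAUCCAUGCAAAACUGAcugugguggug
Mir19b-2 (chrX:52741983-52742066, minus strand): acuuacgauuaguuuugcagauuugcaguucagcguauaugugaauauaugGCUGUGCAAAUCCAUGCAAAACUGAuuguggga
Mir92-1 (chr14:115044427-115044506, plus strand): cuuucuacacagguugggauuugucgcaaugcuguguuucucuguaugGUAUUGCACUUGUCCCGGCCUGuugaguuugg
Mir92-2 (chrX:52741838-52741928, minus strand): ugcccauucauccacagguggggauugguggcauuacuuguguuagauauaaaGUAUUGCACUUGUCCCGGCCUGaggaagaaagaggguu
The shared stretch of the Mir19b genes is 25 bases, the 23 of the mature sequence and 2 before it. That of the Mir92 genes is 22 bases, the 21 of the mature sequence and 1 before it. In both pairs the first base after the mature 3′ end differs. If reads that map to several places are indeed left out, the counts of Mir19b-1 and Mir92-1 can lack reads of the main arm, by an amount the files do not give. Mir19a, which also stood far below Mir17, Mir20a, Mir18 and Mir92-1, has no such copy among annotated hairpins. Copies outside annotated hairpins were not searched, and the part of copied arms in these levels was not tested.

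The members of each seed were set beside all other counted genes with that seed. Mature sequences were at hand for 336 of the 371 detected genes, and 97.8% of gene reads in each library fell on genes with one. The miR-17 seed was carried by 7 genes, 6 of them detected, with 5.10% of gene reads in replicate 1 and 6.07% in replicate 2 (5.59% ± 0.686). Mir17 and Mir20a held 64.9% ± 0.367 of these reads. The others are paralogs from the clusters on chromosomes X and 5, printed with the seed in capitals.
Mir106a, miR-106a-5p: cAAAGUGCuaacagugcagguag
Mir20b, miR-20b-5p: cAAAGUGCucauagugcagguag
Mir93, miR-93-5p: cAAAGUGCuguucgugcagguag
Mir106b, miR-106b-5p: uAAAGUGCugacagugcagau
Mir93 had 9448 and 10932 CPM in replicates 1 and 2 and did not differ from Mir20a beyond the spread (Mir20a over Mir93 1.00 and 1.10). Mir106b had 6767 and 8016 CPM, and Mir17 exceeded it 3.46 ± 0.0228-fold. The chromosome X genes were lower: Mir17 exceeded its positional counterpart Mir106a 20.9 ± 0.194-fold, and Mir20a exceeded Mir20b 13.7 ± 0.181-fold. The remaining gene with this seed, Mir6383, had 0 reads. Its approximate upper limit was set at 3 reads, which is 0.625 CPM in replicate 1 and 0.678 CPM in replicate 2. This is not a strict maximum.

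Among counted genes Mir18 shared its seed with Mir18b on chromosome X alone, and held 97.8% ± 0.0605 of the reads of both, which were 0.496% ± 0.0554 of gene reads. Mir18 exceeded Mir18b 44.0 ± 1.22-fold. The miR-19 seed was carried by Mir19a, Mir19b-1 and Mir19b-2, with 0.0132% ± 0.00121 of gene reads, of which the cluster's genes held 95.9% ± 0.839. Mir19b-2 had 28 reads in replicate 1 and 22 in replicate 2.

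The miR-92 seed differed from these in where its counted reads came from. It was carried by 7 genes, 6 detected, with 1.62% of gene reads in replicate 1 and 1.15% in replicate 2 (1.39% ± 0.333), and Mir92-1 held 28.9% ± 2.55 of them. The higher share lay with Mir92b on chromosome 3 (chr3:89227116-89227198, minus strand), a gene outside the 3 clusters.
Mir92b, miR-92b-3p: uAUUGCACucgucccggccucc
Mir363, miR-363-3p: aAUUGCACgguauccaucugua
Mir25, miR-25-3p: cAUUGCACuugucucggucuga
Mir32, miR-32-5p: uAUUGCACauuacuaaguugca
Mir92b had 9626 CPM in replicate 1 and 5928 CPM in replicate 2, and Mir92-1 stood at 0.458 and 0.598 of its reads, below it beyond the spread. This order holds for the counted reads. If reads that map to several places are left out, Mir92-1 can lack reads of the arm it shares with Mir92-2. The main arm of Mir92b stands in no other hairpin of the RefSeq table. Mir92-1 exceeded Mir363 3.75 ± 0.480-fold, Mir25 7.60 ± 1.56-fold and its copy Mir92-2 10.6 ± 1.62-fold. Mir32 had 170.0 ± 10.7 CPM, and Mir367 had 0 reads in both libraries, with the same limits as for Mir6383. Over all 3 paralogous clusters, the 6 genes on chromosome 14 held 67.5% and 67.7% of the reads in replicates 1 and 2.

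**Figure D3:**
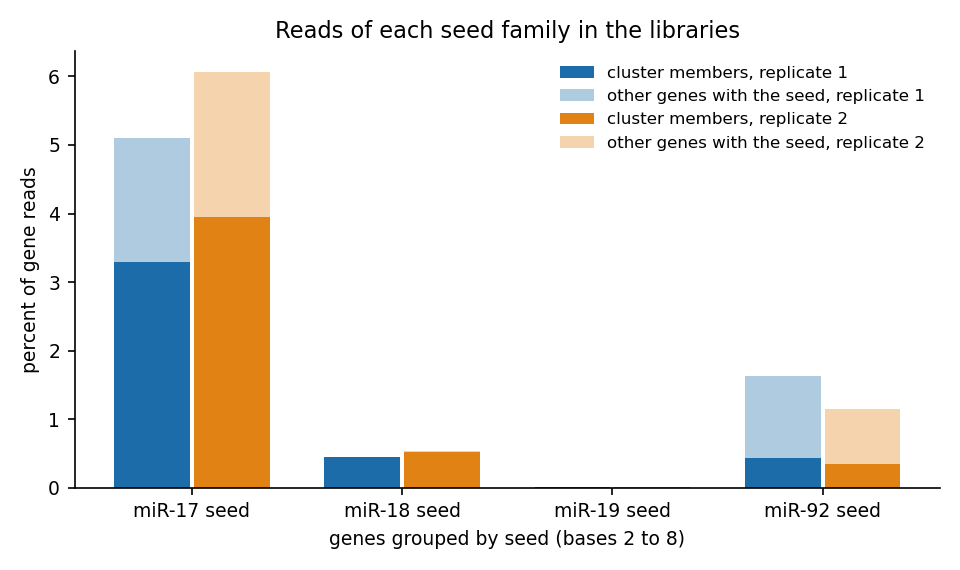
Horizontal axis: genes grouped by the seed of the members; vertical axis: percent of gene reads, in replicate 1 (blue) and replicate 2 (orange), dark for members of the Mir17 cluster and light for other genes with that seed. Members make up 64.9% of the miR-17 seed and 28.9% of the miR-92 seed, and the miR-19 seed, at 0.0132%, is too low to see. Counts of Mir92-1 and Mir19b-1 can lack reads of main arms that they share with genes on chromosome X.

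The replicate pools were compared as libraries, not as conditions. Of the members, 5 of 6 were lower in replicate 1, where 43.9% of detected genes were, and 1 of 6, Mir92-1, was higher, where 56.1% were. The log2 ratio of replicate 1 over replicate 2 was -0.23 for Mir17 (interval -0.24 to -0.22), -0.23 for Mir18 (-0.25 to -0.20), -0.20 for Mir19a (-0.39 to -0.02), -0.34 for Mir20a (-0.36 to -0.32) and -0.22 for Mir19b-1 (-0.65 to 0.20). For Mir92-1 it was 0.31 (0.28 to 0.34). The interval of Mir19b-1 includes 0, so at 92 and 99 reads no difference was detectable for it. Mir92-1 accordingly made up 10.5% of the cluster's reads in replicate 1 and 7.32% in replicate 2, while the proportions of Mir17, Mir18, Mir19a and Mir19b-1 to each other differed little.

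In size these ratios were typical of the detected genes. Over the 371 detected genes the median log2 ratio was 0.04, its SD 0.42 and the median of its absolute value 0.24, and the median of the 6 members was -0.23. At 1.2-fold, 1 of 6 members (Mir20a) was lower in replicate 1, where 15.1% of detected genes were, and 1 of 6 (Mir92-1) was higher, where 28.0% were. At 1.5-fold 0 of 6 members were lower, against 2.70% of detected genes, and 0 of 6 higher, against 10.2%. With scaling by the median of ratios or by TMM, which both shift all log2 ratios by -0.04, 5 members rather than 2 were at least 1.2-fold apart, with no change of direction. Of these, 4 were lower in replicate 1, where 19.7% (median of ratios) and 19.4% (TMM) of detected genes were, and 1 was higher, where 26.1% were under either scaling. Mir20a had a lower ratio than all but 31 of the detected genes, and Mir92-1 a higher one than all but 93.

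The paralogs were set beside the members by seed, in a grouping chosen after these values were seen. The other detected genes with the miR-17 or miR-18 seed had log2 ratios of -0.25 (Mir106a), -0.31 (Mir20b), -0.24 (Mir106b), -0.21 (Mir93) and -0.28 (Mir18b), all below 0 like Mir17, Mir20a and Mir18. Those with the miR-92 seed had 0.70 (Mir92b), 0.63 (Mir92-2), 0.05 (Mir363), -0.11 (Mir25) and -0.13 (Mir32), all above every gene with the miR-17 seed. Within the miR-19 seed the signs differed: Mir19b-2, with 28 and 22 reads, had 0.23 (interval -0.63 to 1.10), against -0.20 for Mir19a and -0.22 for Mir19b-1. Base composition moved with part of these ratios. The main arm of Mir92-1 held 57.1% G and C, against 34.8 to 47.8% in those of the other members, and that of Mir92b 63.6%, but those of Mir363 and Mir32 held 40.9% and 31.8%. Over both arms, whose reads a count sums, Mir92-1 held 52.3% and Mir17 51.1%. Of the paralogs with more, Mir92-2 (55.8%) and Mir92b (63.0%) had log2 ratios above 0. Mir93 (55.6%), Mir106b (53.5%) and Mir25 (54.5%) had ratios below 0. Across the 336 detected genes with a mature sequence, the 166 with at least 50% G and C over both arms had a median log2 ratio of 0.12, and the 170 others 0.00. The Spearman correlation of G and C content with the ratio was 0.18. The part of base composition was not tested.

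**Figure D4:**
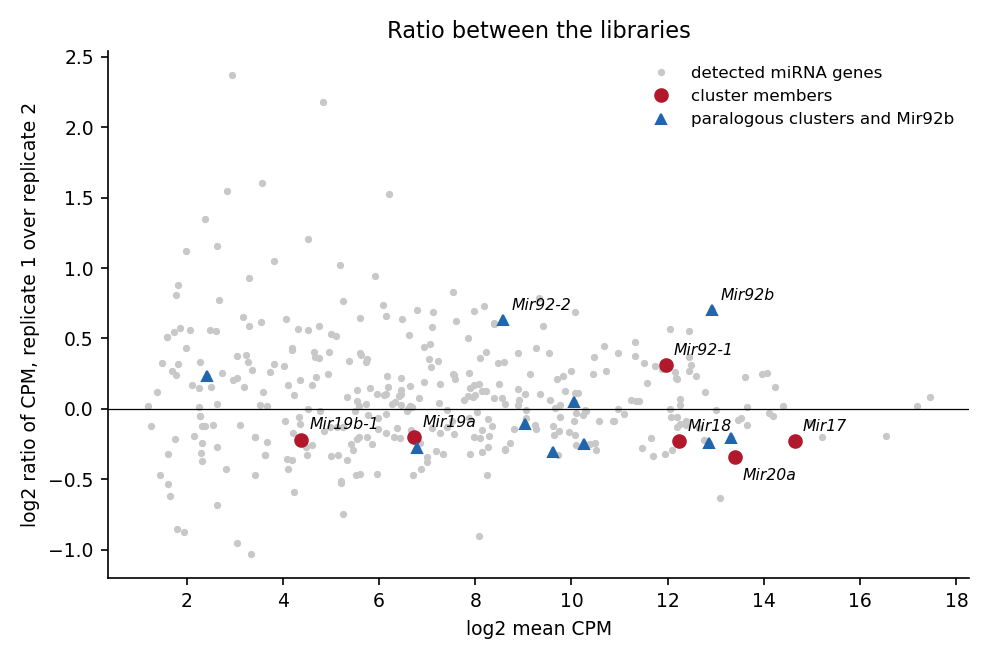
Horizontal axis: log2 mean CPM; vertical axis: log2 ratio of CPM in replicate 1 over replicate 2, for detected miRNA genes (grey), the 6 members (red) and the paralogs with Mir92b (blue triangles). Of the members 5 lie between -0.34 and -0.20, and Mir92-1 lies at 0.31, on the side of Mir92-2 (0.63) and Mir92b (0.70).

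The spread of levels within the cluster was set beside other runs of at least 3 detected miRNA genes on 1 strand with starts under 10 kb apart. There were 15 such runs. The mean CPM of Mir17 was 1229 times that of Mir19b-1, a range of 10.26 on the log2 scale. Of the 14 other runs 2 had a wider range, the run from Mir450b to Mir322 on chromosome X (12.03, 7 genes) and that from Mir379 to Mir3072 on chromosome 12 (10.93, 31 genes), and the median of the 14 was 5.62. The paralogous runs had 7.82 (chromosome X, 6 genes) and 4.28 (chromosome 5, 3 genes). A range can widen with the number of genes, which differs between the runs and was not adjusted for. The SD of log2 mean CPM was 4.06 in the cluster, 4.24 in the Mir450b run and 2.71 in the Mir379 run. In the paralogous runs it was 2.99 (chromosome X) and 2.35 (chromosome 5). Without the members whose main arm is copied, Mir19b-1 and Mir92-1, the range was 7.92, from Mir17 to Mir19a. This alternative was chosen after the data were seen. Genes with a copied arm were not taken out of the other runs, so 7.92 cannot be set beside their ranges. The log2 ratios between libraries had an SD of 0.23 among the 6 members, where the median of the other runs was 0.31.

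**Figure D5:**
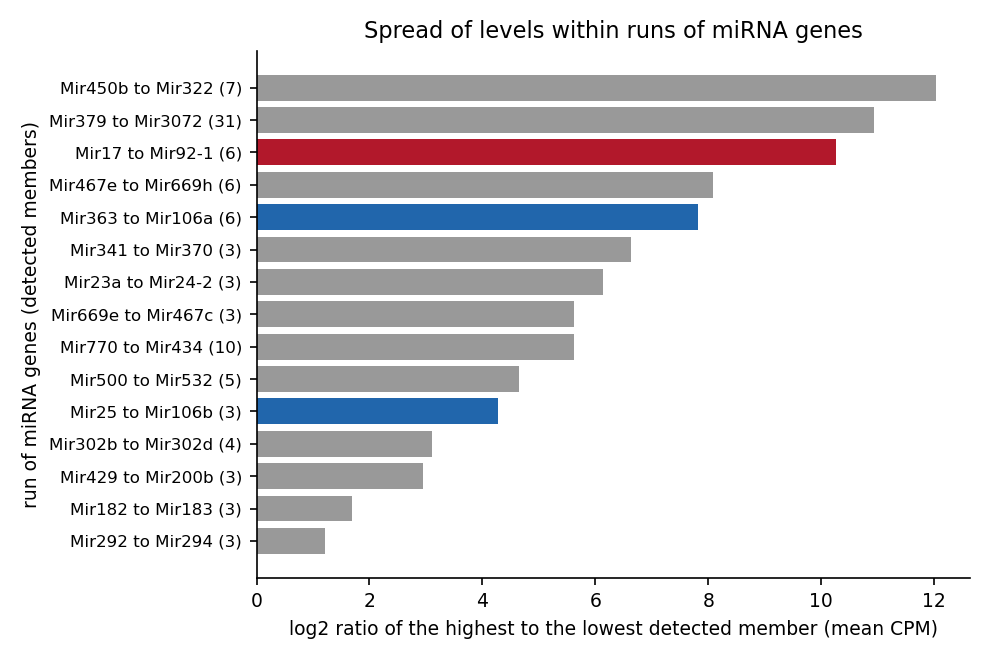
Horizontal axis: log2 ratio of the highest to the lowest detected member by mean CPM; vertical axis: each run of at least 3 detected miRNA genes, with the number of detected members in brackets, the Mir17 cluster in red and its paralogous runs in blue. The Mir17 cluster (10.26) has the third widest bar of 15.

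For each member the genes outside the cluster with the most similar levels in both libraries were found by the Euclidean distance of log2(CPM + 1) over the 2 libraries. They were Mir99b (distance 0.39) and Mir335 (0.47) for Mir17, Mir183 (0.02) and Mir93 (0.13) for Mir20a, and Mir369 and Mir30d (0.09 each) for Mir18. For Mir92-1 they were Mir23a (0.04) and Mir298 (0.10), for Mir19a Mir27a and Mir18b (0.10 each), and for Mir19b-1 Mir181b-1 (0.08) and Mir26a-2 (0.12). Mir93 and Mir18b are the paralogs among them, and Mir17 had the least close neighbours.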

How the data were processed

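The values the authors deposited are raw counts of reads on each miRNA gene, in whole numbers, 1 table per library, with a column for both strands and 1 for each strand. Per the descriptions deposited with them, they rest on mm10 with annotation M4. The sources used here name no aligner, counter or trimming step. Of the strand columns, the fuller was used as that of the gene's own strand. The rows that name no gene stayed out of all totals. In replicates 1 and 2, unmapped reads were 27.3% and 20.0% of all reads and reads on no feature 8.04% and 4.45%.

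Symbols and positions came from GENCODE M21 (1894 of 1973 identifiers matched), sequences from RefSeq. Members, gene lists and comparisons were chosen with earlier results of these data known. Named genes are the members, their paralogs, genes of at least 100 CPM that share a member's seed, and the 2 nearest genes per member. The labels give separate pools, and errors are the SD of the 2 libraries. With 1 group no model across genes was tested. Ratios have exact binomial 95% intervals, tested on simulated independent (Poisson) counts. That setting holds no PCR copies, so it is no test of the intervals for these libraries. TMM factors came from edgeR 4.0.16 (R 4.3.3), all else from Python 3.11.15, numpy 2.4.6, pandas 2.3.3, scipy 1.17.1 and matplotlib 3.10.9. Alternatives were strand, scaling, denominator, read minimum, run gap, seed length, pseudocount and each library alone.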

Additional observations from a re-analysis of the deposited data

How the results depend on the processing

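The order of the 6 members was the same in each library alone. It was also the same with both-strand counts and with median-of-ratios scaling, but neither of these settings could change it. No member had a read on the opposite strand, and scaling multiplies all genes of a library by the same factor. The cluster's share was 2.73% when multiply mapped reads were added to the denominator alone, which could only lower it. Any reads of the cluster among them were not added to its count. With 1 library left out the share was 4.20% to 4.85%. With 2 libraries, leaving out 1 moves a mean by less than its SD by construction, so this is no test of stability. The count of members at least 1.2-fold apart between libraries was 5 with median-of-ratios and 5 with TMM scaling, against 2 with library totals and 2 with a pseudocount of 1 CPM. The percent of genes at least 1.2-fold apart was 53.6% with at least 1 read in both libraries and 35.7% with at least 100, against 43.1% at 10. The runs with a wider range than the cluster numbered 0 with starts under 2 kb apart, 2 with starts under 50 kb, 5 with at least 1 read and 0 with at least 100 reads, where Mir19b-1 no longer counts and the cluster's range is 7.92. Without Mir92-1 the cluster's log2 ratio between libraries was -0.26, against -0.21 (a setting chosen after seeing the data). Seed shares with bases 2 to 7 were as with bases 2 to 8. No paired analysis was possible because there is 1 group. Of the members, depth limits Mir19b-1 most, and its count can also lack reads that match Mir19b-2 equally well.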
